A study of Homo sapiens with 6 samples.

Results

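The Notch receptors NOTCH1, NOTCH2 and NOTCH3, the ligands JAG1, JAG2 and DLL1, and the target genes HES1, HES4, HEY1 and NRARP were followed in SCC-9 cells after knockdown of Ki67. These 10 genes were taken by their symbols from the 25349 genes of the count table, and all 10 had enough reads to be tested. SCC-9 is an established line of human tongue squamous carcinoma cells. Cells received 10 nM of an siRNA that targets MKI67, which encodes Ki67, in its exon 7 (siE7), or 10 nM of a nonspecific siRNA (siNC), at day 0 and once more at day 2. RNA was taken at day 4, with 3 libraries in each group. The study used several exon 7 siRNAs, and the one behind these libraries is not named in the sources used here, so a change shared by the siE7 libraries cannot be told apart from an effect of that siRNA on other transcripts. No label says that the libraries of a group came from separate cultures, so the p-values measure the spread between these libraries, which may be technical.

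Notch signaling passes between touching cells. A ligand of the Jagged or Delta family on one cell binds a Notch receptor on its neighbour, and proteases then release the intracellular part of the receptor. This fragment enters the nucleus, joins the DNA-binding protein RBPJ and Mastermind coactivators, and switches on genes such as those of the HES and HEY repressors. In stratified squamous epithelium, Notch signaling is known for promoting the exit of keratinocytes from the basal layer, and NOTCH1 is often mutated in head and neck squamous carcinoma.

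The RBPJ core motif GTGGGAA is shown first because Notch targets are known to be switched on through RBPJ. RefSeq promoter windows on GRCh38.p14 run from 250 bases before the start of a gene to 50 bases after it, and they were used for 8 of the 10 genes (all but DLL1 and HEY1). On either strand, GTGGGAA was found in the windows of HES1 and HES4 and in none of the other 6, against 6.25% of all 35116 windows. The shorter TGGGAA, which every GTGGGAA contains, was found in the same 2 windows, and in 24.0% of all windows. Capitals below mark GTGGGAA and TGGGAA, and each stretch is 30 bases long and is read in the direction of its gene. The stretch of HES1 lies at chr3:194136058-194136087 on the plus strand, with GTGGGAA beginning 85 bases and a separate TGGGAA beginning 70 bases before the start. The stretch of HES4 lies at chr1:1000150-1000179 on the minus strand, with GTGGGAA beginning 77 bases before the RefSeq start. The GENCODE model of HES4 starts farther upstream, at 1000172, so by that model the motif spans the start and most of the stretch lies inside the gene. For NOTCH2 the window was chr1:120069613-120069912, while its GENCODE model starts upstream at 120100779. By that model the window lies inside the gene, so its lack of GTGGGAA does not describe that start.
HES1: ttactGTGGGAAagaaagttTGGGAAgttt
HES4: cgagtGTGGGAAagaatgcggagccgggtt
These are matches of letters, and no binding was measured in these cells. NRARP, a known target of the pathway, had neither form in its window.

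Library totals lay between 25608192 and 29550264 counts. The targeted gene MKI67 had TMM-scaled levels of 1072, 1029 and 1077 counts scaled to the library total (CPM, the count that a library of 1e+06 reads would give) with siNC and of 112, 124 and 108 CPM with siE7, so the groups did not overlap. MKI67 fell by 3.21 on the log2 scale, with a standard error of 0.114 (adjusted p = 6.7e-08 by the quasi-likelihood test of edgeR, p-values adjusted after Benjamini and Hochberg over 14661 genes). The counts do not separate transcripts with exon 7 from those without it. Of the siE7 libraries, replicate 1 stood apart. A chi-square test of the counts gave 61.1 and 72.7 per degree of freedom between it and the other siE7 libraries, against 6.22 between those and 5.54 to 6.17 among the siNC libraries. All 11 squamous epithelial markers were expressed, with a summed level of 23858 to 25367 CPM with siNC and 21646 to 28234 CPM with siE7. Of these markers 63.6% were called, against 34.0% of all tested genes. The calls were 1 higher (KRT17) and 6 lower, among them TP63 and E-cadherin (CDH1). The part of these markers in the Notch values below was not tested. The 6 endothelial markers summed to at most 0.568 CPM in any library. The fibroblast markers summed to 16.5 to 19.7 CPM with siNC and 18.3 to 24.2 CPM with siE7, most of it COL1A1. Of the leukocyte markers CD14 and CSF1R were measured, with sums of 7.04 to 7.49 and 3.62 to 6.85 CPM, and the defining marker PTPRC was not analysed here. Throughout, a gene is called when its adjusted p-value in that edgeR test is under 0.05. It is a differentially expressed gene (DEG) when its log2 fold change is also above 1 or below -1, as in the methods of the study.

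Of the 10 genes, the receptors NOTCH1 and NOTCH2 and the ligands JAG1 and DLL1 were called, all lower with siE7, and DLL1 was the only DEG. The other 6 genes, among them all 4 targets, did not pass the test. Of all tested genes 34.0% were called, 16.0% lower and 18.0% higher, and 12.2% were DEGs. The median log2 fold change was -0.33 over the 10 genes and 0.08 over all tested genes. For 6 of the 10 genes the values of the groups did not overlap, against 47.6% of all tested genes. In a bulk culture, fewer cells that express a gene and less of its RNA per cell cannot be told apart.

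**Figure D1:**
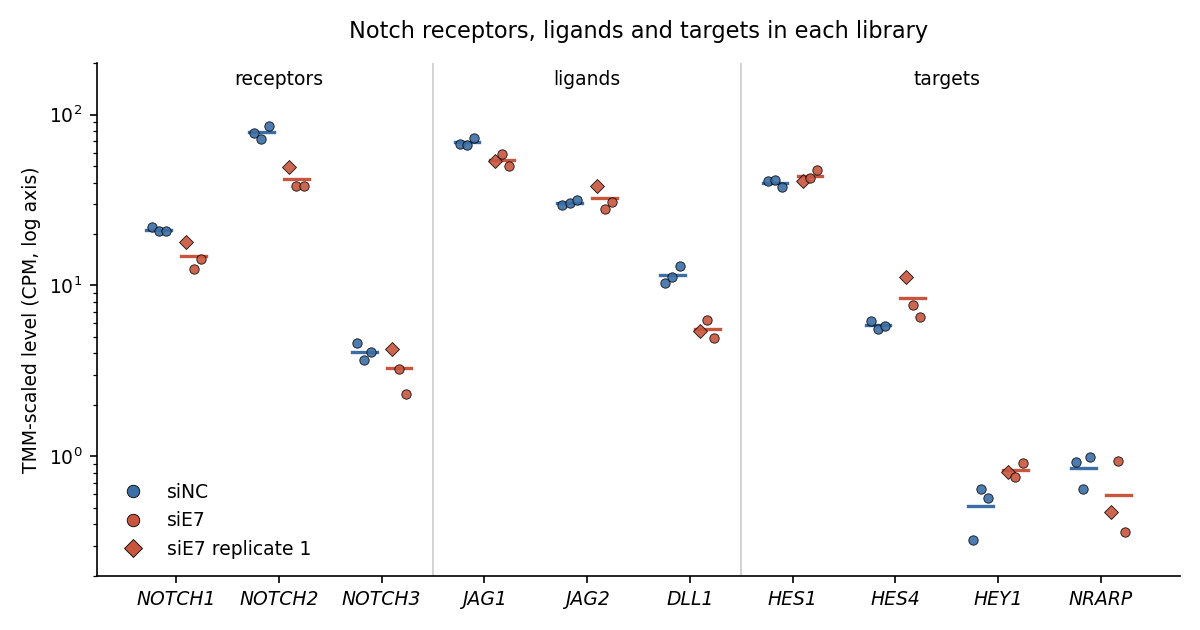
TMM-scaled levels (CPM, log axis) of the 10 Notch genes in each library, grouped as receptors, ligands and targets. Points are libraries, short lines are group means, blue is siNC, red is siE7 and the diamond is siE7 replicate 1. The siE7 points of NOTCH1, NOTCH2, JAG1 and DLL1 lie below all siNC points, and those of HES4 and HEY1 lie above them.

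Among the receptors, NOTCH2 had the highest level per kilobase of exon and the largest decrease. Its gene spans 119911553 to 120100779 of chromosome 1 (GRCh38, minus strand). It had 78.3, 71.8 and 86.2 CPM with siNC and 49.1, 38.4 and 38.3 CPM with siE7. Every siE7 library was below every siNC library, and siE7 replicate 1 was the highest of its group. The level fell by 46.8%, a log2 fold change of -0.91 (standard error 0.135, 95% interval -1.20 to -0.61, adjusted p = 4.8e-04 from edgeR's test). Without siE7 replicate 1 the log2 fold change was -1.10, which also met the condition of a DEG. The first exons of NOTCH2 are nearly identical to those of the NOTCH2NL genes, which arose as partial copies of it and encode short secreted Notch-like proteins, so reads could be split between them. Of these genes, NOTCH2NLR had 47 to 79 counts per library, NOTCH2NLC 25 to 43, and NOTCH2NLA and NOTCH2NLB at most 4, against 1060 to 2277 for NOTCH2. Summed with them as 1 gene, NOTCH2 had a log2 fold change of -0.89 (adjusted p = 4.1e-04, edgeR).

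NOTCH1, the receptor best known for driving keratinocyte differentiation, fell less than NOTCH2. It lies on chromosome 9 from 136494433 to 136546048 on the minus strand. NOTCH1 had 22.0, 20.8 and 20.8 CPM with siNC and 18.0, 12.5 and 14.2 CPM with siE7. The groups did not overlap, and siE7 replicate 1 came nearest to the controls. The level fell by 29.5%, a log2 fold change of -0.51 (standard error 0.159, 95% interval -0.85 to -0.16, adjusted p = 0.030, edgeR). This call depended on the libraries. It was lost without any 1 of the siNC replicates (log2 fold changes of -0.48, -0.53 and -0.53) and without siE7 replicate 2 (-0.39) or siE7 replicate 3 (-0.47), with adjusted p between 0.085 and 0.12, while without siE7 replicate 1 the value was -0.72 and the gene was called. With library totals in place of TMM scaling it was -0.34 and not called.

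NOTCH3, which is known for its role in vascular muscle and is induced by Notch itself in several tissues, had the lowest level of the receptors per kilobase. It lies on chromosome 19 from 15159038 to 15200995 on the minus strand. Its level was 4.58, 3.64 and 4.05 CPM with siNC and 4.25, 3.26 and 2.32 CPM with siE7. The groups overlapped, since siE7 replicate 1 lay inside the range of the controls. The log2 fold change of -0.32 did not pass the test (95% interval -0.86 to 0.22, adjusted p = 0.34, edgeR), and the interval holds both no change and a decrease of up to 0.86 on the log2 scale. Without siE7 replicate 1 it was -0.62 and passed (adjusted p = 0.016, edgeR). NOTCH4, known from endothelium, is not one of the 10 genes. It had a mean of 0.693 CPM with siNC and 0.457 CPM with siE7 and was not called.

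DLL1, a Delta ligand, showed the largest decrease of the 10 genes. It lies on chromosome 6 from 170282206 to 170306565 on the minus strand. DLL1 had 10.3, 11.2 and 13.1 CPM with siNC and 5.43, 6.30 and 4.94 CPM with siE7. The groups lay far apart, and siE7 replicate 1 was in the middle of its group. The level fell by 51.8%, a log2 fold change of -1.05 (standard error 0.177, 95% interval -1.44 to -0.67, adjusted p = 0.0010, edgeR). It was called in each of the 13 alternative settings. Because its change lay close to the condition of a DEG, that condition was missed without siNC replicate 3 (-0.96), without siE7 replicate 3 (-0.97) and without composition scaling (-0.89). Exons of DLL1 overlap FAM120B on the other strand, which had 650 to 897 counts per library against 151 to 345 for DLL1. The use of strand in counting is not given in the sources used here, so part of the counts may belong to this neighbour, and its part in the result was not tested.

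JAG1, a Jagged ligand, was the ligand with the highest level per kilobase. It lies on chromosome 20 from 10637684 to 10673999 on the minus strand. The siNC libraries had 67.0, 66.3 and 72.9 CPM and the siE7 libraries 53.3, 59.0 and 50.1 CPM. All siE7 values were below all siNC values, by a small margin. The level fell by 21.2%, a log2 fold change of -0.34 (standard error 0.114, 95% interval -0.59 to -0.09, adjusted p = 0.037, edgeR). This was the least stable of the 4 calls. It was lost without any 1 of the siNC replicates (-0.37, -0.38 and -0.31), without siE7 replicate 3 (-0.29), without composition scaling (-0.18) and with upper-quartile factors (-0.32), and its adjusted p was 0.067 with a block on the replicate number.

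JAG2, the other Jagged ligand, lies on chromosome 14 from 105140982 to 105168824 on the minus strand. It had 29.4, 30.2 and 31.8 CPM with siNC and 38.1, 28.2 and 30.9 CPM with siE7. The highest and the lowest of the 6 values were both from siE7, so the groups overlapped. The log2 fold change was 0.09 (95% interval -0.22 to 0.39, adjusted p = 0.65, edgeR), and it turned to -0.11 without siE7 replicate 1. The interval leaves room for a change of up to 0.39 upward and 0.22 downward on the log2 scale. A long noncoding RNA gene (ENSG00000257622) on the same strand shares exons with JAG2 and had 12 to 33 counts per library against 726 to 1130. DLL3, an inhibitory Delta relative outside the 10 genes, fell from a mean of 2.48 to 1.32 CPM (log2 fold change -0.90, adjusted p = 0.019, edgeR), a call lost without siNC replicate 1 (-0.88), siNC replicate 2 (-0.85) or composition scaling (-0.73).

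**Figure D2:**
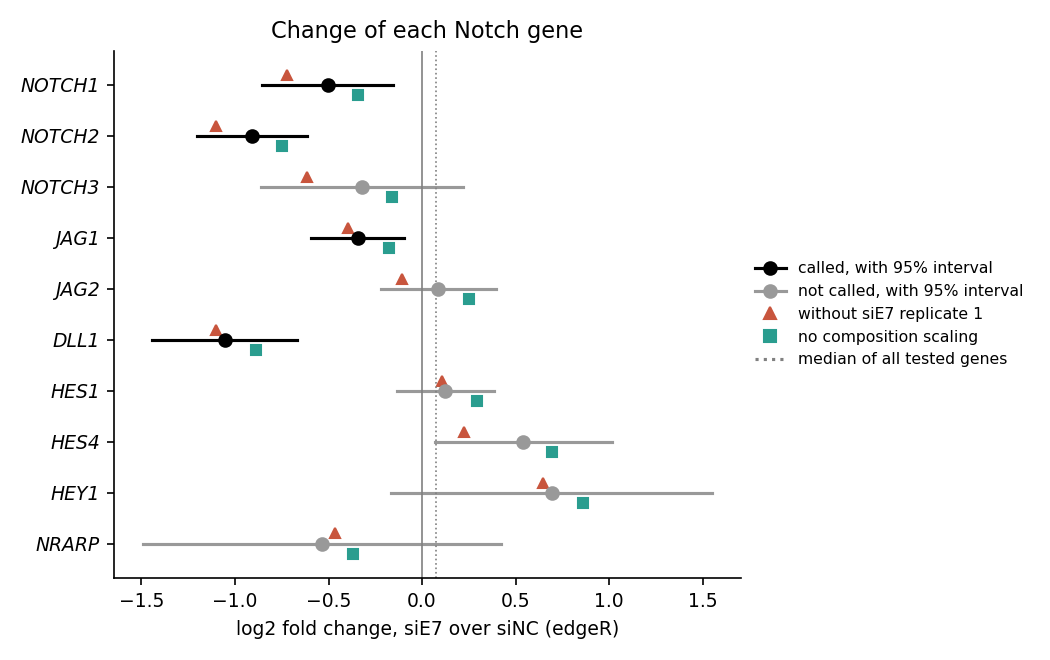
Log2 fold change of each Notch gene, siE7 over siNC, from edgeR. Circles with lines are values with 95% intervals, in black where the gene was called, triangles leave out siE7 replicate 1, squares use library totals alone and the dotted line is the median of all tested genes. NOTCH2 and DLL1 lie between -1.10 and -0.75 in each of these settings, while JAG2 turns from 0.09 to -0.11 without siE7 replicate 1.

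The receptors and the ligands were also compared as shares within a library, which do not depend on how libraries are scaled against each other. Counts were divided by the total exon length of each gene. Of the 3 receptors, NOTCH2 made up 67.6%, 67.7% and 71.2% with siNC and 60.8%, 63.1% and 62.4% with siE7. NOTCH1 made up 25.3%, 26.2% and 22.9% with siNC and 29.8%, 27.4% and 30.9% with siE7. For both receptors the groups did not overlap, so NOTCH2 lost share and NOTCH1 gained it while the CPM of both fell. NOTCH3 held 6.37% ± 0.586 (SD, n = 3) with siNC and 8.54% ± 1.57 (SD, n = 3) with siE7, and its groups overlapped.

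Of the 3 ligands, DLL1 made up 18.6%, 19.8% and 21.1% with siNC and 10.8%, 13.3% and 11.2% with siE7. JAG2 made up 31.7%, 31.9% and 30.6% with siNC and 45.5%, 35.5% and 42.0% with siE7, again without overlap. JAG1 held 48.7% ± 0.822 (SD, n = 3) and 47.2% ± 3.76 (SD, n = 3). The differences between group means were 9.55 percentage points for JAG2, -8.06 for DLL1, -6.75 for NOTCH2, 4.57 for NOTCH1, 2.18 for NOTCH3 and -1.49 for JAG1. A two-sided exact permutation test reached p = 0.10 for NOTCH1, NOTCH2, JAG2 and DLL1, the smallest p that 3 libraries against 3 allow, and adjusted p = 0.15 over the 6 shares. For NOTCH3 and JAG1 the exact p was 0.20 and 0.70. The JAG1 share was 0.280 points higher with siE7 once siE7 replicate 1 was left out.

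**Figure D3:**
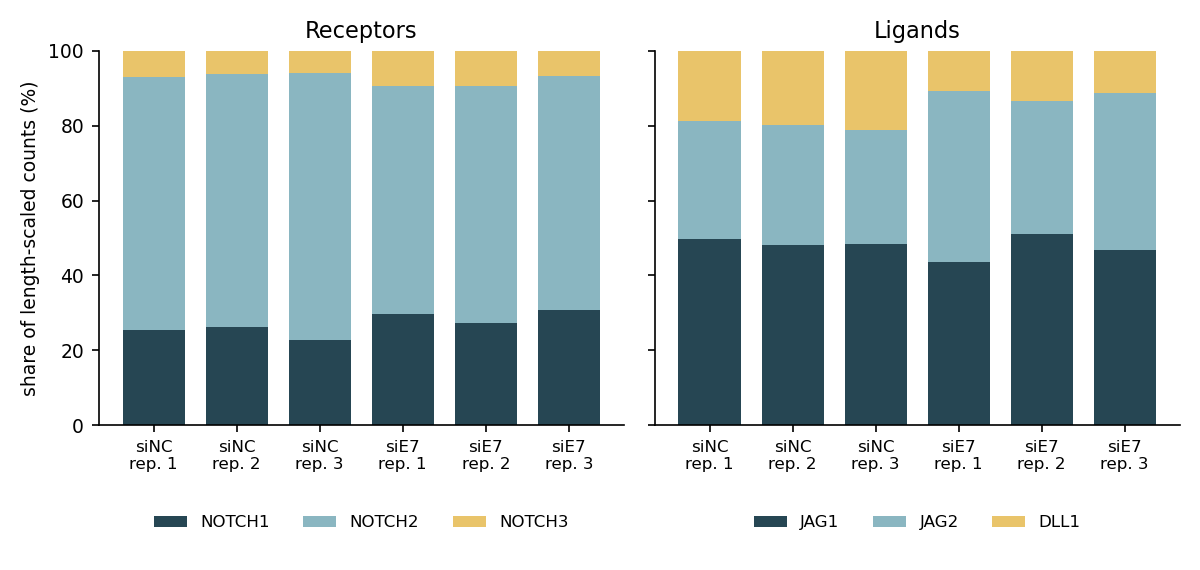
Shares (%) of NOTCH1, NOTCH2 and NOTCH3 among the receptors and of JAG1, JAG2 and DLL1 among the ligands, from counts divided by exon length, in each of the 6 libraries (bars add to 100%). DLL1 makes up 18.6% to 21.1% of the ligands with siNC and 10.8% to 13.3% with siE7.

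None of the 4 target genes was called, and 3 of the 4 had a log2 fold change above 0. HES1, the best known effector of the pathway and a repressor of differentiation genes, lies on chromosome 3 from 194136148 to 194138732 on the plus strand. HES1 had 40.8, 41.7 and 37.6 CPM with siNC and 41.0, 42.6 and 47.3 CPM with siE7. The groups overlapped, and the highest value was that of siE7 replicate 3. The log2 fold change was 0.13 (95% interval -0.13 to 0.38, adjusted p = 0.44, edgeR), against a median of 0.08 for all tested genes. It lay between 0.06 and 0.30 over the alternative settings and was called in none of them. A decrease of the size seen for NOTCH1, NOTCH2 or DLL1 lies outside this interval.

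HES4, a relative of HES1 without a mouse counterpart, lies on chromosome 1 from 998962 to 1000172 on the minus strand. Its level was 6.16, 5.56 and 5.79 CPM with siNC and 11.3, 7.68 and 6.54 CPM with siE7. Each siE7 library was above each siNC library, but siE7 replicate 1 was far above the other siE7 libraries. The log2 fold change of 0.54 did not pass the test (standard error 0.216, 95% interval 0.07 to 1.01, unadjusted p = 0.028, adjusted p = 0.073, edgeR). Without siE7 replicate 1 it was 0.22 (adjusted p = 0.24, edgeR), without siE7 replicate 3 it was 0.70 and passed (adjusted p = 0.034, edgeR), and without composition scaling it was also 0.70 and passed (adjusted p = 0.024, edgeR).

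HEY1 and NRARP had the fewest reads of the 10 genes. HEY1, a repressor of the same family as the HES genes, lies on chromosome 8 from 79762371 to 79767857 on the minus strand, and had 8, 16 and 15 counts with siNC and 24, 21 and 28 counts with siE7. The groups did not overlap, yet the log2 fold change of 0.69 did not pass (95% interval -0.17 to 1.55, adjusted p = 0.20, edgeR). NRARP, which dampens the pathway by binding the Notch fragment on DNA, lies on chromosome 9 from 137299631 to 137302271 on the minus strand. It had 23, 16 and 26 counts with siNC and 14, 26 and 11 counts with siE7, which overlapped. Its log2 fold change was -0.54 (95% interval -1.49 to 0.42, adjusted p = 0.37, edgeR). NRARP was at -1.03 without siE7 replicate 2 and at -0.27 without siE7 replicate 3, and was called in neither case. The interval is too wide to tell a decrease of the size of that of DLL1 from no change.

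Per kilobase of exon, HES1 had the highest level of the 10 genes in both groups, at 19.4 ± 1.05 CPM per kilobase (SD, n = 3) with siNC and 21.2 ± 1.59 (SD, n = 3) with siE7. With siNC it was followed by JAG1 (7.39), HES4 (5.22), JAG2 (4.77), NOTCH2 (4.70), DLL1 (3.02), NOTCH1 (1.69), NOTCH3 (0.435), NRARP (0.323) and HEY1 (0.0931), all in CPM per kilobase. In this order only the neighbours JAG2 and NOTCH2 overlapped between libraries. With siE7 the order was HES1, HES4 (7.60), JAG1 (5.82), JAG2 (5.06), NOTCH2 (2.50), DLL1 (1.46), NOTCH1 (1.19), NOTCH3 (0.348), NRARP (0.224) and HEY1 (0.151). There HES4, JAG1 and JAG2 overlapped as neighbours, as did DLL1 and NOTCH1, and NOTCH3, NRARP and HEY1. JAG2 and NOTCH2 no longer overlapped, with JAG2 above NOTCH2 in every siE7 library. The lengths count every annotated exon once, so genes with long exons that these cells do not use appear lower than they are.

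A list of 80 further genes of the pathway was grouped by role. Of these, 78 were in the table and 71 were tested. The test called 28 of them (39.4%), 10 higher and 18 lower, against 34.0% of all tested genes. The median log2 fold change of the list was -0.15. Leaving out a siNC replicate gave 5 genes called higher and 8 lower in each case, when 20.9% to 21.4% of all genes then tested were called. Leaving out siE7 replicate 1 gave 12 and 32, against 28.9% and 29.5% of all genes then tested, and leaving out siE7 replicate 2 or 3 gave 7 called higher in each case and 11 or 10 lower, against 25.2% and 26.8% of all genes called. Among these fits, the number of list genes called in both directions together was lowest and highest where the share of all genes called was. The directions did not match in the same way. Without siE7 replicate 1 most called genes of the list were lower, while 49.5% of all called genes were higher.

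The proteases that cut Notch moved in both directions. ADAM17, one of the enzymes that shed the outside of the receptor, rose from 58.0 ± 2.20 to 78.9 ± 13.3 CPM (SD, n = 3). Of the γ-secretase complex, which makes the final cut, APH1B rose by 1.31 on the log2 scale (20 to 33 counts with siNC and 49 to 84 with siE7, adjusted p = 0.0087, edgeR) and PSENEN by 0.55. The catalytic subunit PSEN2 fell by 0.55, and FURIN, which cuts the receptor on its way to the surface, fell by 0.58. These 5 are all the called genes of the 9 tested in this role (55.6%, against 34.0% of all tested genes). The subunits APH1A and NCSTN, which were not called, had log2 fold changes of -0.04 and 0.15. APH1B stayed called in each of its 13 alternatives, at 1.12 to 1.61. Without siNC replicate 1 or siNC replicate 3 the other 4 calls were all lost (ADAM17 0.44 and 0.46, PSENEN 0.48 and 0.52, PSEN2 -0.51 and -0.53, FURIN -0.58 and -0.57), as were those of ADAM17 and FURIN without siNC replicate 2 (0.41 and -0.61). ADAM17, PSEN2 and FURIN also lost theirs without siE7 replicate 2 (0.36, -0.49 and -0.49) and siE7 replicate 3 (0.38, -0.45 and -0.46). Among the glycosyltransferases, LFNG, a Fringe enzyme that tunes which ligands the receptor answers to, fell from 14.3 ± 0.748 to 9.61 ± 1.19 CPM (SD, n = 3). Its log2 fold change was -0.57 (adjusted p = 0.015, edgeR). LFNG was the only gene of 4 tested that was called (25%, against 34.0% of all tested genes). LFNG was not called without siNC replicate 2 (-0.59), siNC replicate 3 (-0.54), siE7 replicate 2 (-0.53) or siE7 replicate 3 (-0.51).

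In the nuclear complex, RBPJ itself had 11.8 CPM with siNC and 12.3 CPM with siE7 and was not called (log2 fold change 0.05). MAML2, a Mastermind coactivator, had 9.28, 9.61 and 9.32 CPM with siNC and 2.73, 3.62 and 4.35 CPM with siE7. All siE7 values lay far below those of the controls, and the change was -1.40 ± 0.201 on the log2 scale (± standard error; edgeR, adjusted p = 4.0e-04). MAML1 (0.00) and MAML3 (0.55) were not called, and MAML3 had a mean of at most 0.592 CPM in either group. MAML2 overlaps 2 annotated genes on the other strand. SNW1 and CDK8, which act with the complex in transcription, rose by 0.66 and 0.57 on the log2 scale. With MAML2 these were the only 3 called of the 11 genes tested in this role (27.3%, against 34.0% of all tested genes). CDK8 lost its call without siNC replicate 1 (0.57), siNC replicate 2 (0.64), siNC replicate 3 (0.47), siE7 replicate 2 (0.46) or siE7 replicate 3 (0.51), and MAML2 and SNW1 lost theirs in none of 13 alternatives.

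Of the 12 tested corepressors that hold Notch targets off, 4 were called lower and 1 higher (41.7% called, against 34.0% of all tested genes). SPEN, CTBP1 and CTBP2 fell, by 0.37, 0.50 and 0.37 on the log2 scale, and CIR1 rose. CTBP1 had the smallest p-value of the role (adjusted p = 0.0064, edgeR), and its call alone stood in all 13 alternatives. SPEN and CTBP2 were not called without siNC replicate 1 (-0.37 and -0.37), siNC replicate 2 (-0.40 and -0.37), siNC replicate 3 (-0.35 and -0.37) or siE7 replicate 3 (-0.32 and -0.39), or without composition scaling (-0.20 and -0.19). CIR1 had 23.4, 22.1 and 22.6 CPM with siNC and 22.1, 62.0 and 54.9 CPM with siE7. Its siE7 replicate 1 lay among the controls, so the log2 fold change of 1.03 (adjusted p = 0.017, edgeR) came from replicates 2 and 3, and it was 1.30 without siE7 replicate 1. The call of CIR1 was lost without siNC replicate 1 (1.04), siNC replicate 2 (1.00), siNC replicate 3 (1.02) or siE7 replicate 2 (0.76), and with DESeq2 (0.96).

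Of the 16 tested regulators of receptor trafficking and ubiquitin, 6 were called (37.5%, against 34.0% of all tested genes), 3 higher and 3 lower. Of these, 1 was a DEG in each direction (AAK1 and DTX1), and 12.2% of all tested genes were DEGs. AAK1, a kinase of clathrin endocytosis that stabilises activated Notch, fell by 1.50 on the log2 scale, from 34.1 ± 4.04 to 12.0 ± 0.710 CPM (SD, n = 3; adjusted p = 2.3e-05, edgeR), and it overlaps 6 annotated genes. DTX1, a Deltex ubiquitin ligase and known Notch target, had 7, 6 and 8 counts with siNC and 41, 16 and 30 counts with siE7. The groups did not overlap at these low counts, and the log2 fold change was 1.82 (adjusted p = 0.010, edgeR). It missed the threshold without siNC replicate 2 (1.72, adjusted p = 0.0501, edgeR) and was not tested when 10 counts were asked of every library. MIB2, a ligase that activates ligands, rose by 0.63, DTX2 fell by 0.83, NEDD4 fell by 0.82 and DTX3 rose by 0.61. NEDD4 and DTX3 were not called without siNC replicate 1 (-0.78 and 0.66), siNC replicate 2 (-0.87 and 0.63) or siNC replicate 3 (-0.84 and 0.54), and DTX3 also without siE7 replicate 1 (0.41) or siE7 replicate 3 (0.59). NEDD4 was not called without composition scaling (-0.64), and DTX3 was not called with DESeq2 (0.56) or RLE factors (0.57).

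The role of other target genes held further HES and HEY family members and genes described as Notch targets in some tissues. Of its 13 tested genes 7 were called (53.8%, against 34.0% of all tested genes), 6 lower and ID3 higher. Whether each of them answers to Notch in SCC-9 cells was not tested. HES2, a HES family repressor, had 108, 102 and 95.6 CPM with siNC and 34.5, 25.8 and 26.1 CPM with siE7. Its siE7 libraries stood far under those of siNC, and the change was -1.82 ± 0.139 on the log2 scale (± standard error; edgeR, adjusted p = 6.3e-06), at -2.03 to -1.66 over the alternatives. SOX9, a transcription factor of epithelial progenitors, fell from 33.4 ± 3.48 to 12.5 ± 1.02 CPM (SD, n = 3; log2 fold change -1.42, adjusted p = 3.6e-05, edgeR). CCND1 (cyclin D1) was also a DEG, at -1.48. ID3, an inhibitor of basic helix-loop-helix factors and a known BMP response gene, rose from 23.8 ± 2.18 to 54.4 ± 10.3 CPM (SD, n = 3; log2 fold change 1.19, adjusted p = 1.9e-04, edgeR). MYC and CDKN1A fell by 0.33 and 0.38 on the log2 scale, and each lost its call without any 1 library other than siE7 replicate 1, with values of -0.36 to -0.31 for MYC and -0.41 to -0.30 for CDKN1A. Neither was called without composition scaling (-0.17 and -0.22), nor was MYC with the replicate block (-0.33) or CDKN1A with upper-quartile factors (-0.35). HES6, HES7, HEY2, GATA3 and GMPR were not called, with means of at most 2.45 CPM in either group. NFKB2 was not called either, at means of 166 CPM with siNC and 178 CPM with siE7 (log2 fold change 0.10).

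**Figure D4:**
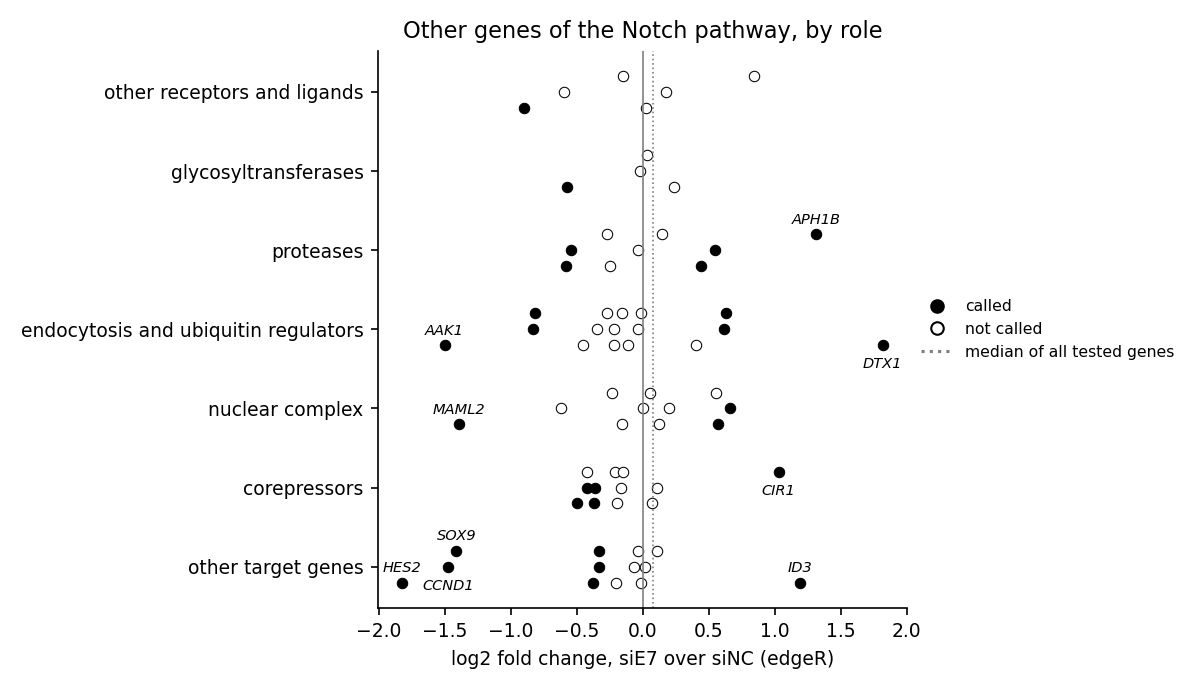
Log2 fold change, siE7 over siNC (edgeR), of the 71 tested genes of the further pathway list, in rows by role. Filled points are called genes, open points are not called, names mark DEGs and the dotted line is the median of all tested genes (0.08). Called genes lie on both sides of 0 among proteases, trafficking regulators and the nuclear complex, and mostly below 0 among corepressors and other targets.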

How the data were processed

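RNA-seq was analysed in 6 libraries of SCC-9 cells, 3 siNC and 3 siE7, grouped by their titles. The authors deposited read counts per gene without normalization, made from directional poly(A) libraries. Per the labels, HISAT2, DESeq2 and GRCh38 were used. The counting tool, the annotation release and the use of strand are not given in the sources used here. Same-numbered libraries were treated as unpaired.

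Genes were filtered by filterByExpr of edgeR 4.0.16 (R 4.3.3), scaled by TMM, and tested by the quasi-likelihood F-test with robust dispersions and Benjamini-Hochberg adjustment. Standard errors are the log2 fold change divided by the square root of F. CPM are counts over TMM-scaled totals, and intervals are 95%. With 3 libraries against 3 the exact permutation test cannot give p under 0.1. Alternatives were DESeq2 1.42.0, limma-voom (limma 3.58.1), other scalings and filters, glmTreat, a replicate block, and fits that each lacked 1 library. Tests were checked on simulated counts.

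The 10 genes and the lists were chosen with earlier results of these data known. Named were the 10 genes, MKI67, the markers and, of the pathway list, its DEGs and the gene with the smallest p in each role. Other pathway genes were named after their values were seen. Positions and exon lengths come from GENCODE v44 on GRCh38. Some genes of the pathway list are counted but not reported here by name.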

Additional observations from a re-analysis of the deposited data

How the results depend on the processing

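NOTCH2 and DLL1 were called lower in all their alternatives (14 and 13), and MKI67 in 13. With library totals alone the median log2 fold change of all tested genes rose by 0.17, 71.2% of called genes were higher against 52.9% with TMM, and 1 of the 10 Notch genes was called higher (HES4, 0.70), 2 lower and 0 were DEGs. NOTCH1 (-0.34) and JAG1 (-0.18) were then not called, and 10 genes of the pathway list were called lower against 18. JAG1 was not called with upper-quartile factors (-0.32). The median of the 10 genes lay 0.41 below that of all tested genes with TMM and with totals alone. Without siE7 replicate 3 the difference was -0.26, with a median of -0.20 for the 10 genes. glmTreat against a log2 fold change of 1 called 0 of the 10 genes as DEGs, where 1 was a DEG with the fold condition and 5 had an unadjusted p under 0.05 by edgeR. HEY1 was not tested when 10 counts were asked of every library.

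Leaving out 1 library at a time, 2 to 5 of the 10 genes were called, 0 to 1 higher and 2 to 5 lower, and 0 to 2 were DEGs, while 20.9% to 58.4% of all tested genes were called. Of the pathway list, 5 to 12 were called higher and 8 to 32 lower. The log2 fold changes lay between -0.72 and -0.39 (NOTCH1), -0.62 and -0.12 (NOTCH3), -0.41 and -0.29 (JAG1), -0.11 and 0.18 (JAG2, below 0 without siE7 replicate 1), 0.22 and 0.70 (HES4), 0.45 and 0.87 (HEY1) and -1.03 and -0.27 (NRARP), and the JAG1 share between -3.46 and 0.280 points. The cause of these shifts was not tested.

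Same-numbered libraries did not deviate together (correlations of -0.055, -0.019 and -0.079 over genes). With 3 libraries in each group and siE7 replicate 1 standing apart, this cannot tell whether the numbers pair them. A replicate block moved the genes called over the whole table from 4990 to 4947. With this block JAG1 had -0.35 and was not called, and no other of the 10 genes changed its call. Depth limits HEY1 and NRARP, at 28 counts or fewer in each library.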
